A study of Mus musculus with 53 samples.

Results

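A set of 9 genes of the Wnt pathway was followed across embryonic stem cells and their derivatives: the ligands Wnt3, Wnt3a, Wnt5a, Wnt5b and Wnt11, the secretion factor Wls, and the target genes Axin2, Lef1 and Sp5. They are 9 of 18193 genes that had a probe set with exactly 1 gene symbol. Each gene was read from 1 probe set, the one with the highest mean over all arrays, and levels are given as the deposited probe set signal on a linear scale. The 53 Affymetrix arrays fall into 15 groups of mouse samples. Wild-type embryonic stem (ES) cells comprised 7 arrays at day 0, undifferentiated, and 4, 5 and 2 arrays at day 2, 6 and 8 without LIF, a cytokine that keeps mouse ES cells undifferentiated. Ezh2-null ES cells comprised 6, 4, 5 and 2 arrays at the same days, and Eed-null ES cells 5, 2 and 2 arrays at day 0, 2 and 6. The other groups were mesoendodermal cells with GFP driven by the brachyury (T) promoter (2 arrays), Sox1-GFP neuronal progenitors (3), neuronal stem cells derived from such progenitors (2) and mouse embryonic fibroblasts, MEF (2). The wild-type arrays came from the lines J1, CJ7 and E14tg1, at day 8 from CJ7 alone. The labels name no parental line or clone for the mutants, so genotype and line cannot be told apart. The ES cells were grown on feeder cells, which were depleted by settling before the RNA was taken.

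Wnt proteins are secreted signals that need a lipid attached in the endoplasmic reticulum and the carrier Wls, a membrane protein, to leave the cell. Ligands such as Wnt3 and Wnt3a act through Frizzled and Lrp receptors to stabilise beta-catenin, which binds Tcf and Lef factors on DNA, whereas Wnt5a, Wnt5b and Wnt11 are best known for signalling that does not pass through beta-catenin. Axin2, a scaffold of the complex that destroys beta-catenin, and Sp5, a zinc finger repressor, are direct targets that feed back on the pathway, and Lef1 is both a nuclear effector and a target. In the mouse embryo Wnt3 is required for the primitive streak, and Ezh2 and Eed are subunits of Polycomb repressive complex 2, which places the repressive H3K27 methyl mark. The series asked how loss of either subunit alters expression in ES cells before and after differentiation.

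The sequence before the annotated start of transcription is shown for Sp5, Wnt3 and Wls. Sp5 was the member with a called difference in both mutants. Wnt3 and Wls were the members called higher at day 6 than at day 0 in all 3 genotypes. Each window holds the 250 bases upstream, from RefSeq on build GRCm38.p6, 5′ to 3′ along the gene. Capitals mark matches to CTTTGAT or CTTTGTT on either strand, letters at the core of the sequence that Tcf and Lef factors bind.

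Sp5, chr2:70474673-70474922, plus strand: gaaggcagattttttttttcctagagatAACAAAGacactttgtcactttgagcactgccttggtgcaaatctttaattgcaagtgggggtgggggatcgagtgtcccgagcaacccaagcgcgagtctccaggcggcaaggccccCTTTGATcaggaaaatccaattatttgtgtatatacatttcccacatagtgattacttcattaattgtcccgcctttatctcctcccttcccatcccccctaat

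Wnt3, chr11:103773925-103774174, plus strand: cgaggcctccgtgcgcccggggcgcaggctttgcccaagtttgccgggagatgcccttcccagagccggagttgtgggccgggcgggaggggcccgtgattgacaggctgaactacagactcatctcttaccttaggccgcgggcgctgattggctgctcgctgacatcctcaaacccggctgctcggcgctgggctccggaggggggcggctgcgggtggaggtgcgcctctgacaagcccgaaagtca

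Wls, chr3:159839400-159839649, plus strand: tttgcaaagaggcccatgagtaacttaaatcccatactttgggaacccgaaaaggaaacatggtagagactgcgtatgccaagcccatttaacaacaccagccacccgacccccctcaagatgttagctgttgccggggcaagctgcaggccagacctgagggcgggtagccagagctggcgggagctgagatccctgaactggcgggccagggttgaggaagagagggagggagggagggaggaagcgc

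The Sp5 window held both motifs. CTTTGAT began 104 bases before the start on the gene's own strand, and the reverse complement of CTTTGTT began 222 bases before it. Neither motif was found in the Wnt3 or Wls window. Of the 9 genes, 8 had a window in the table, and 3 of those 8 held a match: Sp5, Wnt5b and Wnt11. Among all 27025 genes with a window in the table, 9.21% held either motif, and over 32851 single windows CTTTGAT was found in 3.21% and CTTTGTT in 5.03%. A match describes letters only.

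The median signal of an array lay between 50.5 and 63, and 13807 genes whose signal exceeded that median on at least 2 arrays were tested together, all 9 members among them. Wnt3a passed only through the 3 Sox1-GFP arrays, so it had to be high there. Ezh2 signal was 1185 to 1786 in wild-type ES cells at day 0 and 169 to 246 in Ezh2-null cells. Eed signal was 2172 to 2885 in wild-type and 2820 to 3099 in Eed-null cells, so this probe set does not check the Eed label. The lines' 22 arrays of day 2 and 6 fell into array sets by the agreement of paired probe sets: set 1 with 8 arrays (replicates 1 and 2 of the wild-type and Ezh2-null cells) and set 2 with the other 14, every Eed-null array among them. In wild-type cells set and line coincide at day 2, where set 1 is J1 and set 2 is CJ7, and at day 6 set 1 is J1 while set 2 holds 1 J1 and 2 CJ7 arrays, so set and line cannot be told apart at day 2. At day 0, wild-type replicates 1 to 3 stood apart from replicates 4 to 7. Values within these subsets, chosen after the data had been seen, are given beside the results they bear on. The T-GFP and Sox1-GFP arrays still carried all 4 ES cell markers (Pou5f1, Nanog, Sox2 and Zfp42) above the array median. Mean Pou5f1 was 1463 and 687 there against 4090 in undifferentiated wild-type cells, and Sox2, also a neural gene, was 664 and 3374 against 3443. A lower signal in a mixed culture can be fewer cells or less RNA per cell, which cannot be told apart.

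**Figure D1:**
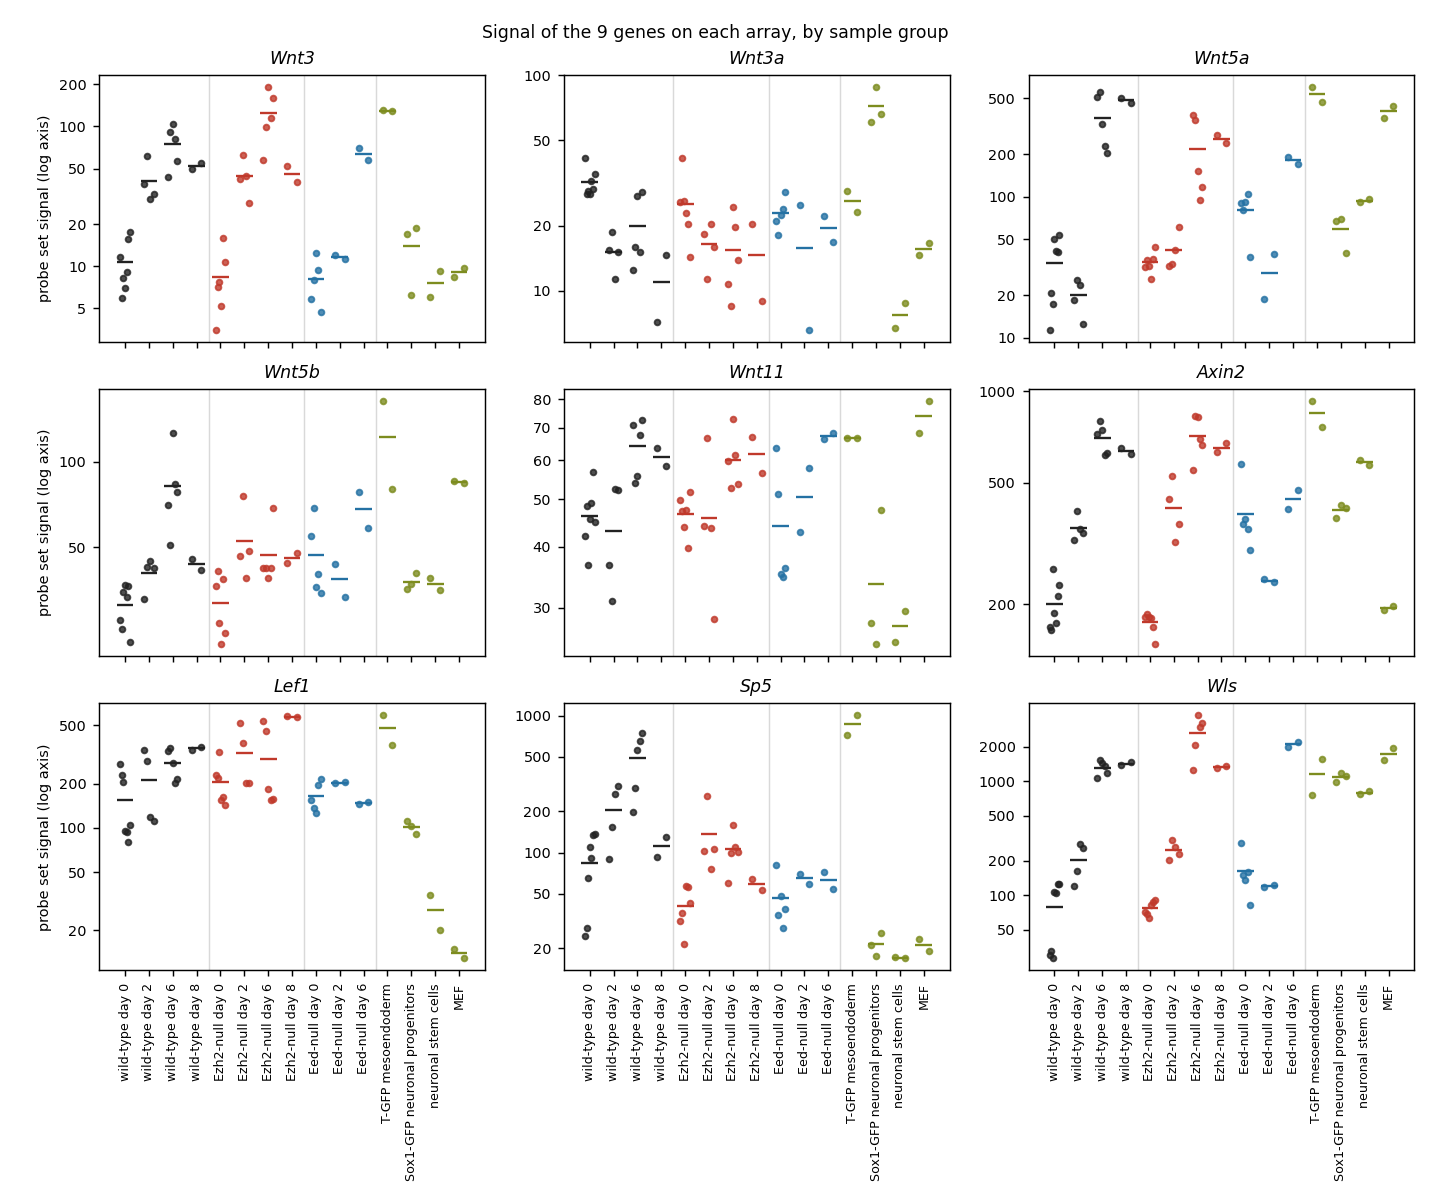
Probe set signal (log axis) of each of the 9 genes on all 53 arrays, by sample group. Points are arrays and bars are group means. Wls lies between 767 and 3766 at day 6 and 8 and in neuronal stem cells and MEF, and Wnt3a is highest on the 3 Sox1-GFP arrays.

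During differentiation of wild-type cells the ligands Wnt3 and Wnt5a, the secretion factor Wls and the targets Axin2 and Sp5 rose between day 0 and day 6. Differences are on the scale of log2(signal + 32) with their standard error, from limma, and adjusted p-values (Benjamini-Hochberg) cover all 13807 genes. A call needed 2-fold or more together with an adjusted p below 0.05. Of the 9 members, 5 were called higher at day 6 than at day 0 and 0 lower, beside 5.96% of all tested genes called higher. The median difference was 1.31 over the 9 members and 0.04 over the tested genes.

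Wnt3, the streak ligand, ranged from 5.9 to 17.6 at day 0 with a median of 9.0. It was 38.5, 61.2, 30.2 and 32.9 at day 2, then 43.8, 91.7, 103.7, 81.8 and 56.4 at day 6. Every day 6 array lay above every day 0 array, and the rise was 1.31 ± 0.14 (adjusted p = 2.8e-10). The difference from day 0 to day 2 was 0.76 ± 0.15 (adjusted p = 0.00017), under 2-fold although the arrays did not overlap. At day 8 Wnt3 read 50 and 54.5, within the day 6 range.

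Wnt5a, a ligand of cell polarity and movement, kept to the later step. It ranged from 11.4 to 53.9 at day 0 (median 40.6) and read 18.5, 25.7, 23.8 and 12.5 at day 2. At day 6 its signal was 513.8, 554.6, 327.5, 228.3 and 206.6. The day 2 arrays lay inside the day 0 range and all day 6 arrays far above both. The rise from day 2 to day 6 was 2.84 ± 0.26 (adjusted p = 1.1e-11), with 3.39 in array set 1 and 2.50 in set 2. Of the other Wnt5a probe sets, one rose by 1.73 and one by 2.22 from day 0 to day 6. The last was 45.7 to 57.7 at day 0 and 58.9 to 85.9 at day 6, higher without overlap.

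Wnt5b was 23.2 to 36.9 at day 0 and 70.5, 50.9, 126.4, 83.8 and 78.2 at day 6. The arrays did not overlap, but the difference of 0.82 ± 0.13 (adjusted p = 4.1e-07) was under 2-fold. Wnt11, a ligand of heart and kidney development, differed by 0.30 ± 0.10 (adjusted p = 0.01) with overlapping arrays. Wnt3a, a ligand of the later streak and tail bud, lay at or below 41.2 on every wild-type array, and its difference was -0.31 ± 0.10 (adjusted p = 0.0091).

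Wls read 30.3, 32.4 and 28.1 on wild-type replicates 1 to 3 at day 0 and 106.5, 105.1, 125.6 and 125.2 on replicates 4 to 7. At day 2 it was 120.7, 162.1, 280.7 and 260.6, and at day 6 it was 1056, 1527, 1444, 1363 and 1180. The day 6 arrays were an order of magnitude above day 0, with no overlap. The rise to day 6 was 3.71 ± 0.24 (adjusted p = 9.6e-17), and it was 3.18 with replicates 4 to 7 alone at day 0. Of the 4 Wls probe sets, 3 rose by 3.10 to 3.71 and the last had group means of 54.4 or less. The fibroblast and feeder marker sum at day 0 was 275 to 339 on replicates 1 to 3 and 943 to 1708 on replicates 4 to 7, split as Wls was. Wls was 1372 and 1458 at day 8.

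Axin2 ranged from 165.4 to 261.2 at day 0 (median 187.3). It was 325.6, 405.2, 353.9 and 344.1 at day 2, 722.8, 800.7, 746.5, 615.7 and 628.3 at day 6, and 649.4 and 623.0 at day 8. The days 0, 2 and 6 did not overlap one another. The rise to day 6 was 1.67 ± 0.11 (adjusted p = 3.3e-16), and the second Axin2 probe set rose by 1.27 ± 0.17.

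Sp5 ranged from 24.5 to 136.1 at day 0 (median 91.8), lowest on replicates 1 and 2. It read 89.9, 152.4, 268.1 and 307.6 at day 2, 196.5, 298.4, 560.3, 649.0 and 745.7 at day 6, and 93.2 and 129.3 at day 8. Its signal thus peaked at day 6, and set 2 arrays lay above set 1 arrays on both days. The rise to day 6 was 2.14 ± 0.27 (adjusted p = 1.0e-08) and the fall from day 6 to day 8 was -1.73 ± 0.39 (adjusted p = 0.0077). Sp5 was the 1 member called between day 6 and day 8, beside 0.181% of tested genes called lower. Day 8 is CJ7 alone, and against the CJ7 arrays of day 6 the fall was -2.36 (adjusted p = 4.6e-06), where Wnt5a was also called, higher by 1.06. The Sp5 call over both lines was lost without either day 8 array (adjusted p = 0.34 and 0.10) and with only the 2 groups fitted (adjusted p = 0.26).

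Sp5 and Wls were called higher at both steps, day 0 to day 2 and day 2 to day 6. Sp5 arrays overlapped at each step, and Wls arrays overlapped from day 0 to day 2. Axin2 arrays did not overlap at either step, and Axin2 was called at neither. From day 0 to day 2, 2 of 9 members were called higher, Sp5 (1.03 ± 0.29, adjusted p = 0.0056) and Wls (1.16 ± 0.26, adjusted p = 0.00056), beside 1.48% of tested genes. Neither was called with wild-type replicates 4 to 7 alone at day 0, where Sp5 differed by 0.56 (adjusted p = 0.16) and Wls by 0.63 (adjusted p = 0.049). The Sp5 call was also lost without day 0 replicate 1 or 2 or day 2 replicate 3 or 4. From day 2 to day 6, 3 of 9 were called higher, Wnt5a, Sp5 (1.11 ± 0.31, adjusted p = 0.0061) and Wls (2.55 ± 0.28, adjusted p = 1.4e-09), beside 3.19% of tested genes. Within set 1 Sp5 differed by 0.87 (adjusted p = 0.11) and within set 2 by 1.09 (adjusted p = 0.0092), and the call was lost without day 2 replicate 1 or day 6 replicate 4 or 5 and with only the 2 groups fitted (adjusted p = 0.089). Wls differed by 2.92 and 2.17 within the sets.

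Lef1 was higher on set 1 than on set 2 arrays at both days, a split that in wild-type cells is also J1 against CJ7 at day 2. At day 2 it read 340.6 and 284.8 on set 1 and 119.1 and 111.2 on set 2, and at day 6 335.1 and 348.5 on set 1 and 278.3, 202.9 and 214.6 on set 2. The groups overlapped at each step, and the difference from day 0 to day 6 was 0.80 ± 0.27 (adjusted p = 0.011), under 2-fold. It was called with wild-type replicates 4 to 7 alone at day 0 (1.27), and the second Lef1 probe set gave 0.81 ± 0.14.

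Markers of other cell types moved with these rises. The summed signal of 4 primitive streak and mesoderm markers (Mixl1, Eomes, Mesp1 and Gsc) was 155 to 260 at day 0, 614 to 887 at day 2, 815 to 4404 at day 6 and 329 to 441 at day 8. Within day 6 it was 815 and 917 on set 1 and 3429, 4279 and 4404 on set 2, where Sp5 was also higher. The sum of 7 fibroblast and feeder markers was 275 to 1708 at day 0, 1526 to 1923 at day 6 and 6576 to 7574 at day 8. Sums of endoderm, trophoblast and blood markers rose too, from 256 to 461, 191 to 1797 and 356 to 397 at day 0. At day 6 they were 1123 to 1688, 6627 to 8292 and 1313 to 7653. The trophoblast sum at day 6 was mostly Krt18, with a mean of 824 at day 0 and 7041 at day 6. Elf5, of the same list, had means of 23.6 and 30.5 and exceeded the array median on no array of either day. The ES cell marker sum fell from between 12319 and 14541 to between 2266 and 3057, and the neural sums overlapped. The part of these markers in the results was not tested.

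**Figure D2:**
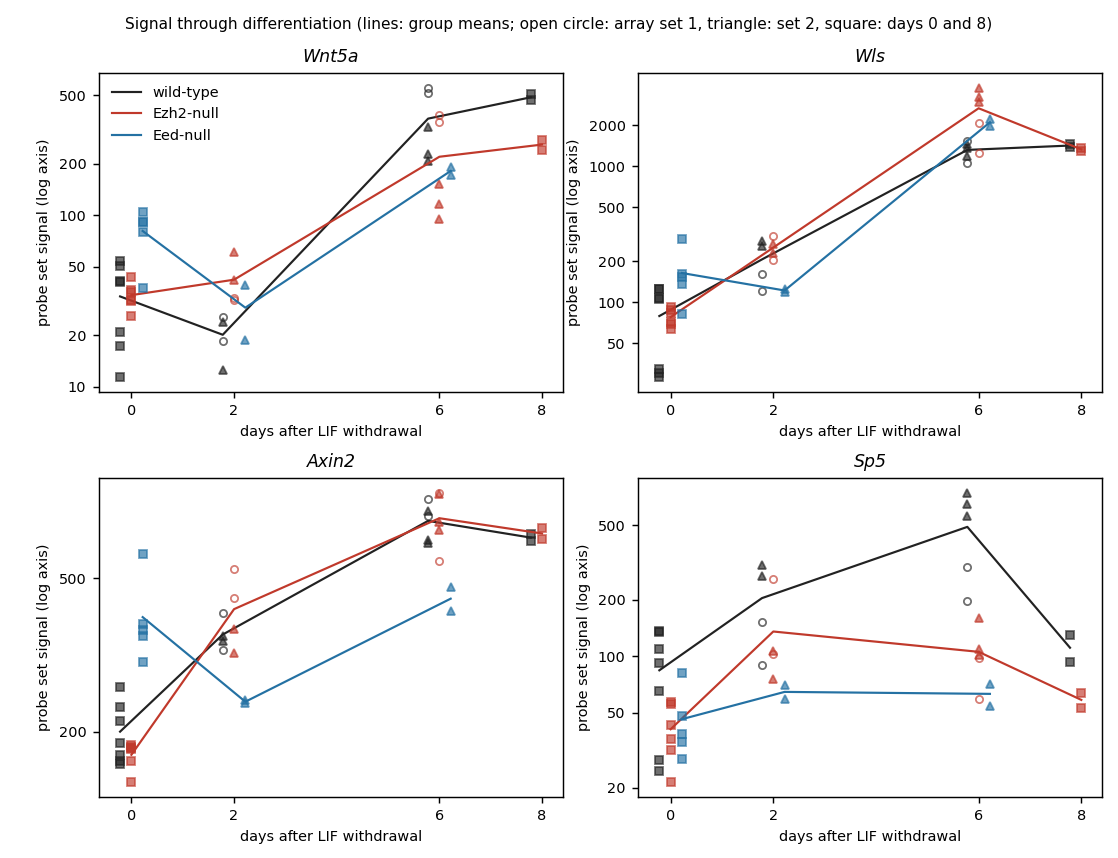
Probe set signal (log axis) of Wnt5a, Wls, Axin2 and Sp5 against days after LIF withdrawal in wild-type, Ezh2-null and Eed-null cells. Symbols are arrays, by array set at day 2 and 6, and lines join group means. Wild-type Sp5 reaches 197 to 746 at day 6, while the mutants lie between 55 and 160 on that day.

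In undifferentiated cells loss of Ezh2 left 0 of 9 members called against wild-type, beside 0.0507% of tested genes called by limma, and 1 member had an unadjusted p under 0.05. With wild-type replicates 4 to 7 alone Sp5 was called lower (-1.05, adjusted p = 0.029). Sp5 read 21.4 to 56.9 in Ezh2-null cells (median 39.65) and overlapped wild-type because of wild-type replicates 1 and 2. The comparisons of the mutants with wild-type share the wild-type arrays.

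Loss of Eed also left 0 of 9 called at day 0, beside 2.26% of tested genes, with 5 members at an unadjusted p under 0.05. Axin2 was 576.7, 367.3, 381.0, 353.7 and 302.5 in Eed-null cells, all above the wild-type maximum of 261.2. Its difference of 0.87 ± 0.11 (adjusted p = 7.9e-08) was under 2-fold. Between the mutants the difference was called: Ezh2-null Axin2 was 148.4 to 185.6 (median 181.2), -1.02 ± 0.12 relative to Eed-null (adjusted p = 5.5e-09), 1 of 9 members beside 1.43% of tested genes called lower. It sat at the 2-fold limit, which it missed without Eed-null replicate 1 (-0.89) or Ezh2-null replicate 6 (-0.99), with arrays centred on their medians (-0.90) and as the mean of both probe sets (-0.81).

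Wls was 288.7, 151.7, 135.7, 160.3 and 81.6 in Eed-null cells and Wnt5a 90.9, 80.4, 92.0, 104.4 and 37.6. Replicate 5 was the lowest for both and lay within the wild-type range, and the other 4 lay above it. The differences from wild-type were 0.86 ± 0.24 (adjusted p = 0.0041) for Wls and 0.79 ± 0.23 (adjusted p = 0.0043) for Wnt5a. Without replicate 5 Wls was called at 1.04. With wild-type replicates 4 to 7 alone the differences were 0.33 (adjusted p = 0.27) and 0.49 (adjusted p = 0.11), and against J1 alone both were called (1.55 and 1.2). The fibroblast and feeder markers summed to 7154, 4230, 3703 and 4239 on the first 4 Eed-null arrays and 405 on replicate 5, against 275 to 1708 in wild-type. In MEF Wls was 1532 and 1949, Wnt5a 366.0 and 442.5 and Axin2 191.8 and 197.9. The Axin2 value of 302.5 on replicate 5 was the lowest of the Eed-null values. The part of feeder RNA in the Wls, Wnt5a and Axin2 values was not tested. The 5 endoderm markers also summed higher in Eed-null cells, 630 to 1601 against 256 to 461. Of these Dab2 was also high in MEF, at 1628.5 and 2053.1, so the sum is not specific to endoderm. The other listed endoderm markers were each higher on every Eed-null array than on any wild-type array. Sox17 was 116.3 to 527.0 in Eed-null cells and 22.3 to 84.4 in wild-type, against 3.4 and 8.7 in MEF. The part of the endoderm markers was not tested.

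At day 2, limma called 0 of 9 members in Ezh2-null cells (0.123% of tested genes, 0 members at an unadjusted p under 0.05) and 0 of 9 in Eed-null cells (1.04%, 3 members). Sp5 was 102.7, 258.2, 75.4 and 106.6 in Ezh2-null and 70.0 and 59.4 in Eed-null cells. The Eed-null arrays lay below every wild-type array, and the difference was -1.18 ± 0.41 (adjusted p = 0.086). Set 2, which holds both Eed-null arrays and whose wild-type arrays are all CJ7, gave -1.73 (adjusted p = 0.00098, called) for Eed-null and -1.39 (adjusted p = 0.014) for Ezh2-null cells, and set 1 gave 0.40 (adjusted p = 0.78) for Ezh2-null cells. The Eed-null difference was also called with array set as a blocking term (-1.47) and without wild-type replicate 1 (-1.46). Wnt3 in Eed-null cells was 12 and 11.3, below the wild-type minimum of 30.2 (-0.72 ± 0.21, adjusted p = 0.041, under 2-fold).

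At day 6 both mutants had lower Sp5 than wild-type, and Sp5 was the 1 member called in each comparison. Ezh2-null Sp5 read 59.6, 98.6, 160.2, 109.2 and 101.3 and Eed-null Sp5 71.7 and 54.6, against 196.5 to 745.7 in wild-type. No mutant array reached the lowest wild-type array. The difference was -1.82 ± 0.30 (adjusted p = 6.9e-06) in Ezh2-null cells, 3.53-fold on this scale, beside 1.14% of tested genes called lower. It was -2.32 ± 0.39 (adjusted p = 3.1e-05) in Eed-null cells, 4.99-fold, beside 1.25% called lower. Within set 1 the Ezh2-null difference was -1.33 (adjusted p = 0.024) and within set 2 -2.15 (adjusted p = 1.2e-07). The Eed-null difference within set 2 was -2.84 (adjusted p = 1.2e-08). The streak and mesoderm markers were lower in the same arrays, with sums of 175 to 277 in Ezh2-null and 188 to 204 in Eed-null cells against 815 to 4404, and 4 of 4 were called lower in each mutant. Mixl1 differed by -3.53 and -3.90 and Eomes by -3.05 and -3.21. The summed ES cell markers were 2266 to 3057 in wild-type, 1236 to 7929 in Ezh2-null and 6522 to 6566 in Eed-null cells, and the fibroblast and feeder sum reached 5951 in Ezh2-null cells against 1923 in wild-type. Their part in the Sp5 result was not tested.

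No other member was called over all arrays at day 6 in either mutant. Wnt11 and Wnt3a arrays overlapped wild-type in both mutants. Lef1 was 144.8 and 149.8 in Eed-null cells, below every wild-type array (202.9 to 348.5). In Ezh2-null cells it was 154.0 to 532.9 with a median of 183.9, so those arrays reached both below and above the wild-type range. Wls in Ezh2-null cells was 1242 and 2087 on set 1 and 3766, 2967 and 3232 on set 2, and in Eed-null cells 1983 and 2210. The set 2 mutant arrays all exceeded the wild-type maximum of 1527. The Ezh2-null difference was 0.91 ± 0.26 (adjusted p = 0.0076), 0.33 within set 1 (adjusted p = 0.71) and 1.3 within set 2 (adjusted p = 0.0007), and the Eed-null difference was 0.67 ± 0.35 (adjusted p = 0.2). The Ezh2-null difference was called within set 2 and without Ezh2-null replicate 1 (1.16).

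Wnt3 in Ezh2-null cells was 57.9 and 99.6 on set 1 and 192.9, 114.2 and 159.2 on set 2 (0.51 ± 0.16, adjusted p = 0.012). Set 2 separated it from wild-type and set 1 did not, with differences of 0.73 and 0.17. Wnt5a went the other way, with 384.2 and 348.9 on set 1 and 151.8, 95.5 and 117.2 on set 2 in Ezh2-null cells and 191.0 and 171.8 in Eed-null cells. Its differences were -0.74 ± 0.24 (adjusted p = 0.021) and -0.80 ± 0.32 (adjusted p = 0.086), and within each set the Ezh2-null arrays lay below the wild-type arrays (-0.51 and -0.89). Within set 2 the Eed-null difference was -0.40 (adjusted p = 0.27). Against J1 alone both were called (-1.12 and -1.19).

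Wnt5b was 42.1, 42.3, 39.1, 42.1 and 68.9 in Ezh2-null cells (-0.51 ± 0.14, adjusted p = 0.0037; -0.31 within set 1 and -0.64 within set 2). Its second probe set, 2.9 to 18.3 in Ezh2-null, 10 and 18.8 in Eed-null and 25.1 to 61.2 in wild-type cells, gave -0.85 ± 0.13 and -0.66 ± 0.17. Axin2 separated the mutants. It was 552.8, 831.4, 823.2, 696.1 and 666.5 in Ezh2-null cells (0.01 ± 0.12, adjusted p = 0.96) but 410.0 and 474.5 in Eed-null cells, below all wild-type arrays (-0.63 ± 0.16, adjusted p = 0.0058, under 2-fold, and -0.55 within set 2). Ezh2-null Axin2 exceeded Eed-null by 0.64 ± 0.16 (adjusted p = 0.014), and 0 of 9 members were called by limma between the mutants at day 6, beside 0.739% of tested genes, with 2 members at an unadjusted p under 0.05.

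At day 8, 0 of 9 members were called by limma in Ezh2-null cells, beside 1.06% of tested genes and with 1 member at an unadjusted p under 0.05. Sp5 was 63.9 and 53.4 (-0.65 ± 0.47, adjusted p = 0.65), Wnt5a 275.2 and 241.8 against 507.1 and 468.0, and Wls 1299 and 1354. Lef1 was 577.0 and 572.0 against 341.5 and 357.5 (0.67 ± 0.47, adjusted p = 0.64). Wnt5a was lower and Lef1 higher on both mutant arrays, and 2 arrays a group limit what this comparison can show.

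**Figure D3:**
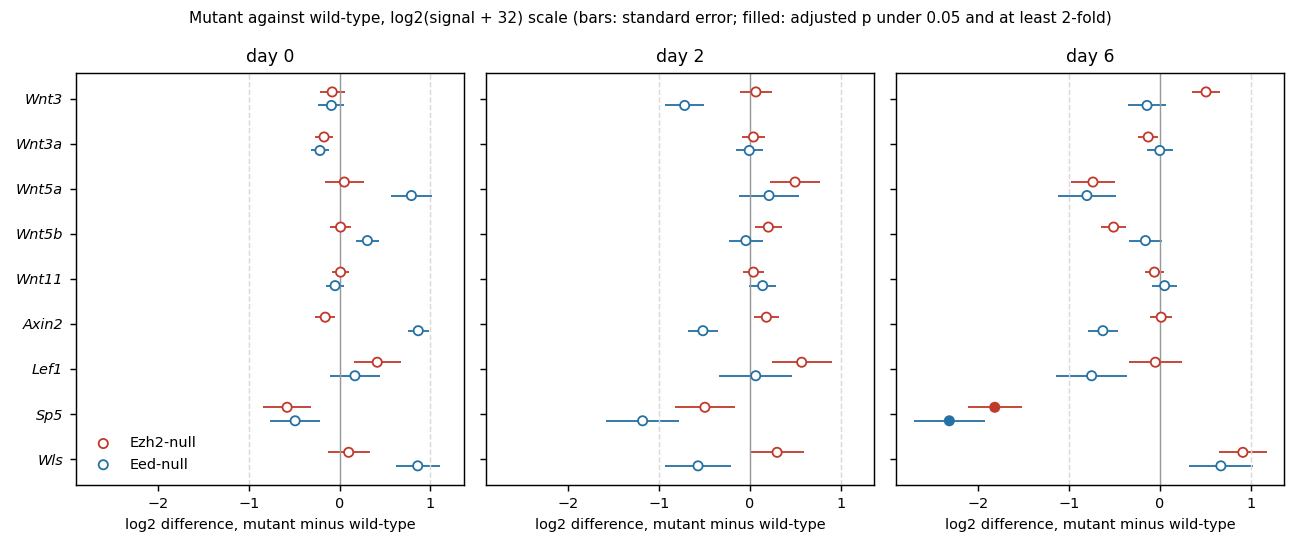
Mutant minus wild-type difference of each gene on the log2(signal + 32) scale at day 0, 2 and 6, with the standard error as bars. Filled symbols mark calls: Sp5 at day 6 in Ezh2-null (-1.82) and Eed-null (-2.32) cells, while the Eed-null Axin2 value passes from 0.87 at day 0 to -0.63 at day 6.

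**Figure D4:**
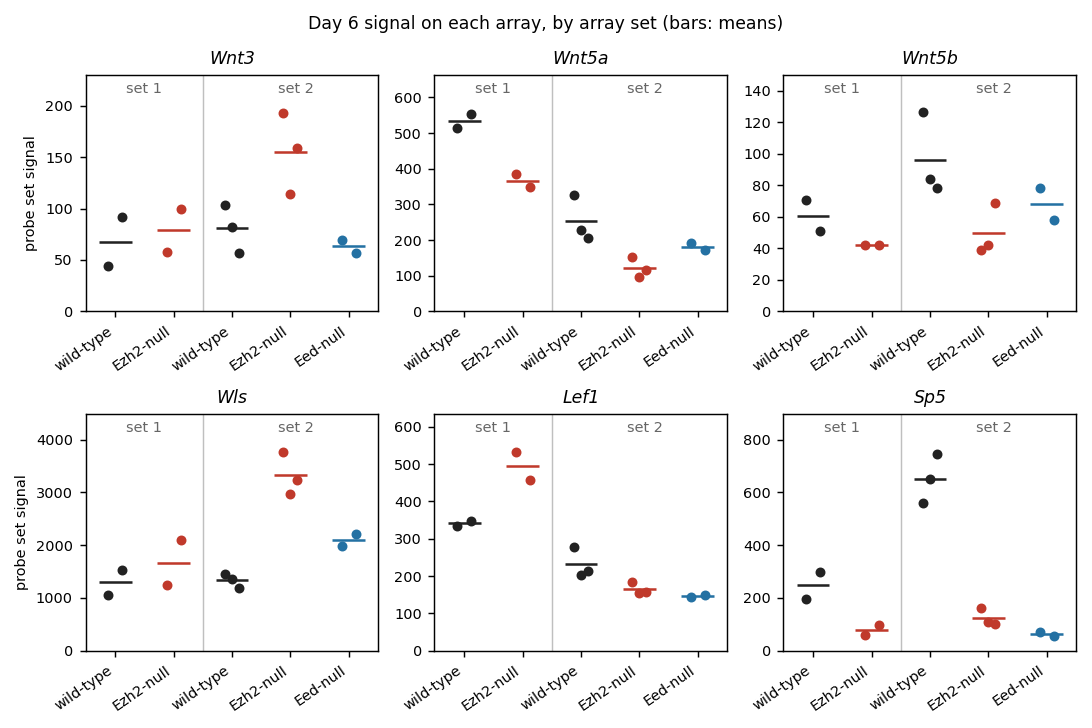
Probe set signal at day 6 on each array, split by array set, for 6 genes, with bars at the mean. Sp5 is lower in Ezh2-null than in wild-type cells in both sets and in Eed-null cells in set 2, which holds all Eed-null arrays. By contrast Wls and Wnt3 separate Ezh2-null from wild-type arrays in set 2 and overlap in set 1.

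Within the mutants, differentiation raised Wnt3 and Wls as in wild-type cells. From day 0 to day 6 in Ezh2-null cells, 4 of 9 members were called higher, beside 8.64% of tested genes: Wnt3 (1.89 ± 0.15), Wnt5a (1.76 ± 0.23), Axin2 (1.84 ± 0.12) and Wls (4.53 ± 0.25). In Eed-null cells 2 of 9 were called higher, beside 5.55%: Wnt3 (1.25 ± 0.21) and Wls (3.52 ± 0.35). Ezh2-null Sp5 was not called, but its arrays did not overlap, at 21.4 to 56.9 at day 0 and 59.6 to 160.2 at day 6. Without Ezh2-null day 6 replicate 1 it was called higher (1.04, adjusted p = 0.0025). Eed-null Axin2 differed by 0.17 ± 0.16 (adjusted p = 0.41) and Eed-null Sp5 by 0.31 ± 0.39 (adjusted p = 0.55). Eed-null Wnt5a differed by 0.95 ± 0.32 (adjusted p = 0.017), with no overlap of arrays.

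Tests of the difference between genotypes in this change called 1 of 9 members lower for Ezh2, Sp5 (-1.24 ± 0.39, adjusted p = 0.024), beside 1.24% of tested genes. For Eed they called 3 of 9 lower, beside 2.41%: Wnt5a (-1.60 ± 0.39, adjusted p = 0.0034), Axin2 (-1.49 ± 0.20, adjusted p = 9.2e-07) and Sp5 (-1.83 ± 0.48, adjusted p = 0.0056). The Ezh2 call for Sp5 was lost with wild-type replicates 4 to 7 alone at day 0 (-0.77, adjusted p = 0.18), with only the 4 groups fitted (adjusted p = 0.064) and without wild-type day 6 replicate 4 or 5 (adjusted p = 0.057 and 0.067). The Eed call for Wnt5a was lost with CJ7 as the wild-type line (-1.02, adjusted p = 0.16), and that for Sp5 without Eed-null day 6 replicate 2 (-1.70, adjusted p = 0.057). Without Ezh2-null day 6 replicate 1, Wls (1.06) and Wnt5a (-1.01) were called for Ezh2 too, against 0.81 and -0.79 with it. The Eed-null change in Axin2 joins the higher level at day 0 to the lower level at day 6, and its second probe set gave -1.01 ± 0.29. Array sets were defined only at day 2 and 6, so a set effect and the step from day 0 cannot be told apart.

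Among the sorted and derived cells, T-GFP mesoendoderm had higher Sp5, Wnt5a, Lef1, Wnt3 and Wnt5b than Sox1-GFP neuronal progenitors. Sp5 was 727.2 and 1004 in T-GFP cells, 21.1, 17.6 and 25.9 in Sox1-GFP progenitors, 17.3 and 16.9 in neuronal stem cells and 23.2 and 19.2 in MEF. The T-GFP arrays were higher by more than an order of magnitude. Of the 9 members, of which Wnt3a is set aside here, 5 were called higher in T-GFP than in Sox1-GFP cells, beside 3.83% of tested genes. Sp5 differed by 4.05 ± 0.43 (adjusted p = 2.4e-10), Wnt5a by 2.66 ± 0.35, Lef1 by 1.90 ± 0.42, Wnt3 by 1.83 ± 0.22 and Wnt5b by 1.09 ± 0.20. The Wnt5b call was lost without T-GFP replicate 1 (0.69). Axin2, at 0.99 ± 0.18, was just under 2-fold and was called without T-GFP replicate 2 (1.13) or Sox1-GFP replicate 2 or 3. Against wild-type day 6, limma called 0 of 9 members in T-GFP cells, beside 0.659% of tested genes and with 3 members at an unadjusted p under 0.05. Sp5 differed there by 0.91 ± 0.39 (adjusted p = 0.2).

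Wnt3 was 130.4 and 128.7 in T-GFP cells and 6.0 to 18.6 on the Sox1-GFP, neuronal stem cell and MEF arrays. Wnt5a was 606.2 and 475.7 in T-GFP cells, 67.5, 69.3 and 40.1 in Sox1-GFP cells and 91.9 and 96.0 in neuronal stem cells. Lef1 was 586.1 and 369.8 in T-GFP cells, 111.2, 103.4 and 91.5 in Sox1-GFP cells, 34.7 and 20.2 in neuronal stem cells and 15 and 12.9 in MEF. The T-GFP arrays lay above the Sox1-GFP and neuronal stem cell arrays for each of these genes, while MEF, at 366.0 and 442.5, came close to them for Wnt5a.

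Sox1-GFP progenitors had the highest Wnt3a, 60.6, 88.7 and 66.0, where no other array passed 41.2, and neuronal stem cells read 6.7 and 8.8. Since Wnt3a was tested only because of these 3 arrays, no test of it against them is given. Called against undifferentiated wild-type cells were Wls, higher (974.5, 1168 and 1107, a difference of 3.45 ± 0.29), and Sp5, lower (-1.0 ± 0.32, adjusted p = 0.0091). They were 2 of the 8 members other than Wnt3a, beside 13.4% of tested genes called in either direction. The Sp5 call sat at the 2-fold limit and was lost against J1 alone (-0.12, adjusted p = 0.82) and without Sox1-GFP replicate 2 or any 1 of wild-type replicates 4 to 7. From progenitors to neuronal stem cells Lef1 fell (-1.18 ± 0.42, adjusted p = 0.022), 1 of the 8 members other than Wnt3a, beside 8.79% called lower. The Lef1 call was lost without either neuronal stem cell array and without Sox1-GFP replicate 1 (adjusted p between 0.052 and 0.17), and its second probe set gave -0.13 ± 0.22.

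Axin2 was 594.0 and 574.4 in neuronal stem cells, 383.0, 423.4 and 414.9 in Sox1-GFP cells and 928.0 and 762.5 in T-GFP cells. MEF, at 191.8 and 197.9, had a level within that of undifferentiated cells. Against neuronal stem cells, MEF had lower Axin2 (-1.44 ± 0.19) and higher Wnt5a (1.79 ± 0.38) and Wls (1.10 ± 0.42, adjusted p = 0.03), 3 of 9 beside 18.9% of tested genes called in either direction. The Wls call was lost without any 1 of the 4 arrays (adjusted p between 0.052 and 0.17). Against undifferentiated wild-type cells MEF had higher Wls (4.11 ± 0.33) and Wnt5a (2.77 ± 0.31) and lower Lef1 (-1.92 ± 0.37) and Sp5 (-1.01 ± 0.38, adjusted p = 0.02), 4 of 9 beside 24.1%. The second Lef1 probe set gave -0.23 ± 0.19, and the Sp5 call was lost without either MEF array, without any 1 of wild-type replicates 4 to 7 and against J1 alone (-0.13).

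Of 65 other Wnt pathway genes listed by role, 52 were tested. From day 0 to day 6 in wild-type cells 9 were called higher and 2 lower, 21.2% in either direction against 10.3% of all tested genes, with a median difference of 0.34 against 0.04. All 11 are named here, with values for the 4 of smallest p. The receptor list had 3 of 22 higher, the Frizzled receptor Fzd2 (2.39 ± 0.14), the R-spondin Rspo3, which strengthens Wnt reception (3.09 ± 0.17), and Ryk, and 1 lower, Fzd5 (-2.55 ± 0.13). Wnt6 was the 1 of 8 other ligands called, higher by 1.76 ± 0.16. Of 9 genes of acylation and the intracellular core, the kinase Gsk3b was higher and Porcn, the enzyme that acylates Wnt proteins, lower. Bcl9l and Tcf7l2 were higher among 6 Tcf factors and co-activators, and Cdx2 and Sp8 among 7 other targets. T, itself a target, was not analysed here.

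Of these 52 genes limma called 0 in Ezh2-null cells against wild-type at day 0, 2 and 6, beside 0.0507%, 0.123% and 3.03% of all tested genes. At those days 7.69%, 9.62% and 40.4% of the 52 had an unadjusted p under 0.05, against 10.7%, 9.14% and 34.8% of all tested genes. At day 8, 1 was called, Porcn (1.26 ± 0.28), beside 1.06%. In Eed-null cells Gsk3b was higher at day 0 (1.07 ± 0.16), 1 of 52 beside 2.26%. At day 2 limma called 0 beside 1.04%, and 19.2% had an unadjusted p under 0.05 against 18.6% of all tested genes. At day 6 Rspo3 was lower (-1.37 ± 0.25) and the receptor Ryk higher (1.43 ± 0.49, adjusted p = 0.041), 3.85% beside 3.1%. The change from day 0 to day 6 differed from wild-type for Ror1 in both mutants, by 1.07 ± 0.15 for Ezh2 and 1.19 ± 0.18 for Eed. Ror1 was the 1 gene of the 52 called for Ezh2, beside 3.09% of all tested genes called in either direction. For Eed 5 of the 52 were called, Ror1 among them, beside 4.69%.

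Between T-GFP and Sox1-GFP cells 4 of 52 were called higher and 4 lower, 15.4% against 10.3% of all tested genes. Rspo3 (3.86 ± 0.27) and Cdx2 (1.85 ± 0.19) were higher, and Fzd3 (-3.74 ± 0.40) and Fzd1 (-1.10 ± 0.16) were lower. Fzd1 was higher in neuronal stem cells than in progenitors (2.48 ± 0.16) and Sp8 lower (-4.03 ± 0.25), within 5 higher and 8 lower, 25% against 14.3%. Against wild-type ES cells MEF had 12 higher and 3 lower, 28.8% against 24.1%, with the smallest p for the R-spondin Rspo2 (4.90 ± 0.15) and for Fzd1 (3.79 ± 0.14).

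The order of group means differed between members. Wnt3, Wnt5a, Wnt5b, Axin2 and Sp5 were highest in T-GFP cells, with means of 130, 541, 122, 845 and 865, and in each case overlapped the next group, Ezh2-null day 6 for Wnt3 and Axin2, wild-type day 8 for Wnt5a, MEF for Wnt5b and wild-type day 6 for Sp5. Lef1 was highest in Ezh2-null day 8 cells (575, overlapping T-GFP), Wls in Ezh2-null day 6 cells (2659, overlapping Eed-null day 6), and Wnt11 in MEF (73.8), down to 27.5 in neuronal stem cells. Wnt3a alone had a top group, Sox1-GFP, that held no value in common with any other array.

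Over the 15 group means on the log2 scale, Wnt5a and Wls had a correlation of 0.80, Wnt3 and Sp5 0.77 and Wnt3 and Axin2 0.76, whereas Wls and Sp5 had 0.12. The genes with the pattern most like Sp5 were Gsc (0.93), Mixl1 (0.93) and Alox15 (0.91). Those most like Wls were Farp1 (0.98), Fam107b (0.97) and Ripor1 (0.97), and those most like Wnt5a were Pcdh7 (0.96), Pdgfra (0.95) and Nrp1 (0.94). For Wnt3 they were Tnnc1, Pdlim3 and Bbx (each 0.91), for Wnt3a Bbs4 (0.94), Prmt8 (0.93) and Agbl5 (0.91), and for Wnt11 Eva1b (0.95), Vamp8 (0.93) and Lgals3 (0.93). Axin2 was closest to Dnajc5 (0.92), Lef1 to Gcnt1 (0.91) and Wnt5b to Maff (0.91). These are descriptions over 15 groups, which share cell lines, days and array sets.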

How the data were processed

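RNA from mouse ES cells, their derivatives and MEF was hybridised to 53 Affymetrix arrays, 1 per sample. The deposited values are probe set intensity on a linear scale, 0.4 to 33986. The software that summarised them was not given in the sources used here, and no depth or probe-level error is known. Of 45037 probe sets 34945 had 1 gene symbol in GEO's platform annotation, 932 several and 9160 none, and 34741 matched RefSeq gene IDs. Each gene was read from its probe set of highest mean.

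log2(intensity + 32) was fitted with limma 3.58.1 in R 4.3.3, with a mean per group over all 15 groups (residual degrees of freedom 38, prior 4.6). The 13807 genes fitted lay above the array median on 2 arrays or more, and p-values were adjusted by Benjamini-Hochberg over them. A call needed 2-fold or more and an adjusted p below 0.05. The fit was tested on simulated data. Replicates are labelled biological. No 2 arrays shared more than 1.57% of values. Array sets came from the leading component (52.1% of variance) of differences between 2 probe sets of 6404 genes, and no cause is named for them.

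Same-numbered Ezh2-null and wild-type arrays deviated together at day 2 (correlations 0.566 to 0.7) and day 6 (0.384 to 0.721). At day 0 these correlations were -0.016 to 0.286. Arrays correlated best with their own number in 3 of 4 cases at day 2 and 3 of 5 at day 6. These numbers were taken as pairs from the data for the replicate block alone, and pairs and array sets coincide. The main fit held no term for pairs. The 9 genes and all lists were chosen with earlier results of these data known. Named besides the members were up to 4 called genes of the other pathway lists with the smallest p, up to 2 genes of a marker list and the 3 genes most like each member. Promoter windows came from RefSeq. Figures were drawn with matplotlib 3.10.9. The alternatives were the pseudocount, normalisation, filter, probe set rule, arrays fitted, array set, replicate block, wild-type line and leaving out each array.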

Additional observations from a re-analysis of the deposited data

Results flagged for a closer look

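On 2 occasions a single array stood far from the rest of its group. Wnt5a in Eed-null cells at day 0 was 37.6 on replicate 5 and 80.4 to 104.4 on the other 4, a gap of 0.712 of the range on the log2(signal + 32) scale, against a critical value of 0.71. Wnt5b in Ezh2-null cells at day 6 was 68.9 on replicate 5 and 39.1 to 42.3 on the other 4, a gap of 0.874 of the range on the same scale. The rule tested 63 groups, marked 2, and marks about 1 in 20 by chance.

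The change from day 0 to day 6 differed between genotypes, by limma's interaction term, for Sp5 in Ezh2-null (-1.24) and Eed-null (-1.83) cells, and for Wnt5a (-1.60) and Axin2 (-1.49) in Eed-null cells, each on the log2 scale relative to wild-type.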

How the results depend on the processing

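Of 207 member values 40 were called. Their 782 alternative values kept the call in 714 cases and lost it in 68, and 0 reversed, while values not called became called in 53 cases. These totals and the counts for neuronal stem cells against Sox1-GFP include a Wnt3a call. It cannot serve as a result, since Wnt3a was tested only because it was high on the Sox1-GFP arrays. Counts of called members moved as follows. Of the planned settings, a pseudocount of 8 gave 2 for Eed-null against wild-type at day 0, 1 at day 2, 2 for Ezh2-null against Eed-null at day 0 and 0 for the Ezh2 interaction. The larger pseudocount gave 0 for wild-type day 2 against day 0, for Ezh2-null against Eed-null at day 0 and for neuronal stem cells against Sox1-GFP cells, 1 for Eed-null day 6 against day 0 and for Sox1-GFP against wild-type day 0, 3 for T-GFP against Sox1-GFP and 2 for MEF against wild-type day 0. Arrays centred on their median gave 1 for wild-type day 2 against day 0 and 0 for Ezh2-null against Eed-null at day 0, and the mean of all probe sets gave 1 and 0 there and 1 for neuronal stem cells against Sox1-GFP. The filter at the 75th percentile gave 1 for Eed-null day 6 against day 0, 3 for T-GFP against Sox1-GFP and 1 for neuronal stem cells against Sox1-GFP. Only the arrays compared gave 0 for wild-type day 8 against day 6 and for the Ezh2 interaction. The array set as a block gave 1 for Eed-null at day 2. It was not run where day 0, day 8 or T-GFP arrays, which have no set, are compared with day 2 or 6, except in the interactions.

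J1 alone gave 2 for Ezh2-null at day 6, 3 and 2 for Eed-null at day 0 and 6, and 2 for the Ezh2 interaction. CJ7 alone gave 2 for wild-type day 8 against day 6 and for Ezh2-null at day 2, and 1 for Eed-null at day 0 and at day 2. Of the settings added after seeing the data, array set 2 alone gave 1 and 2 for Ezh2-null at day 2 and 6 and 1 for Eed-null at day 2, and wild-type replicates 4 to 7 alone gave 0 for wild-type day 2 against day 0 and 1 for Ezh2-null at day 0. Leaving out 1 array gave 1 to 2 for wild-type day 2 against day 0, 0 to 1 for day 8 against day 6, 1 to 2 for Ezh2-null at day 6, 0 to 1 for Eed-null at day 0 and day 2 and for Ezh2-null against Eed-null at day 0, 0 to 3 for the Ezh2 interaction, 1 to 2 for Sox1-GFP against wild-type day 0 and 1 to 2 for neuronal stem cells against Sox1-GFP. With 1 array left in a group, its spread is assumed to be that of the other groups.

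The replicate block changed no member's call for Ezh2-null against wild-type. For pairs that share only a number it gave 1 and 2 called members for Eed-null at day 0 and 6, and 0 and 1 for Ezh2-null against Eed-null at day 0 and 6. Correlations of same-numbered deviations there ran from -0.195 to 0.141, and 0 of 5 day 0 arrays correlated best with their own number. At day 8 the correlation was -0.199, and crossing the numbers gave 143 called genes in place of 147. Over all tested genes 80 of 463 counts moved by over 1.5 times. The larger pseudocount lowered the count in 23 of 23 comparisons, by over 1.5 times in 22. Wild-type day 8 against day 6 went from 133 to 10 with only those arrays fitted and 786 with CJ7 alone. Against wild-type, Ezh2-null cells went from 7 to 220 with J1 alone at day 0, and from 418 to 795 with set 2 alone at day 6. The replicate block took Eed-null cells from 143 to 560 at day 2 and from 428 to 864 at day 6, and Ezh2-null against Eed-null cells from 102 to 921 at day 6. Signals near background, as for Wnt3a, Wnt11 and Wnt3 before day 6, are compressed by the pseudocount.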
